A study of Sus scrofa with 23 samples.

Results

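The genes described here are 41 of the 6765 that the porcine array names by a single symbol. Their symbols begin with EIF (eukaryotic initiation factor) or EEF (eukaryotic elongation factor) followed by a digit, leaving out EIF1AY. Most encode factors that start and drive protein synthesis. The rule also takes in regulators and relatives that share the naming, such as a kinase (EIF2AK2), an inhibitor (EIF4EBP2) and a methyltransferase (EEF1AKMT1). Each gene was read from 1 probe set, the one with the highest mean signal over all 23 samples once the control probe sets of the array were left out. The 41 genes carried 63 such probe sets in all. For EEF1A1 the controls are brighter than the chosen probe set and are described apart. The choice used no difference between stages. EEF1A2, EEF2, EEF2K and EIF4EBP1 were not analysed here.

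All samples came from offspring of German Landrace gilts that were fed a low-protein diet in gestation. The samples of 94 dpc (days post conception) were fetal, 5 in number, and those of 1, 28 and 188 dpn (days post natum) were 6 each. Every group carried the same maternal diet, so the comparisons are between ages within that diet and not between diets. The offspring of 3 gilts were taken per stage. The labels do not say which samples share a dam, and the p-values treat them as separate, so they may be too small. The number of arrays limits the precision.

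Translation in animals begins when the ternary complex of eIF2, GTP and initiator tRNA joins the small ribosomal subunit together with eIF1, eIF1A, eIF3 and eIF5. The mRNA is brought in by the cap-binding complex eIF4F, made of the cap-binding protein eIF4E, the scaffold eIF4G and the RNA helicase eIF4A. After subunit joining by eIF5B, eEF1A delivers aminoacyl tRNAs and eEF2 moves the ribosome along. Growing tissue controls the process mainly at eIF2, through its kinases, and at eIF4E, through binding proteins that mTORC1 switches off. In young pigs, feeding and growth are known to act on these control points in skeletal muscle.

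The labels call every sample liver, whereas the series title speaks of muscle. The 9 measured of 10 skeletal muscle markers summed to 220364 to 248560 at 94 dpc, 259125 to 476203 at 1 dpn, 377756 to 637649 at 28 dpn and 526618 to 691501 at 188 dpn, and each had a mean signal at or above the 98.7th percentile of the array. The 10 hepatocyte markers summed to 10036 to 25442, 4690 to 13699, 1931 to 21459 and 2657 to 18668 over the same stages, and albumin (ALB) lay between 34.5 and 9137 over all samples. The samples are therefore called by their stage and not by a tissue. Markers of other cells moved with age as well: 7 fibroblast and matrix genes summed to 9952 to 15919 at 188 dpn, against 40848 to 59337 at 94 dpc. For 6 proliferation genes the sums lay at 928 to 1240 and 4347 to 6070 in these stages. The part of these shifts in any result was not tested, and in a bulk sample fewer cells of a type and less RNA per cell cannot be told apart. In 3 of the 6 samples of 1 dpn (replicates 2, 4 and 5) the 5′ to 3′ signal ratio of the GAPDH control was 0.0868 to 0.148, against 1.09 to 1.29 in the other 20 samples. Changes of the named genes' chosen probe sets that involve 1 dpn are given with and without these 3 samples, and so are the counts over the 41 genes and over each group of genes.

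Signals are the deposited linear intensities, taken as already scaled to one array mean. Changes are differences of log2(signal + 16) between stage means from limma fitted to all probe sets. The added 16 makes the change of dim genes look smaller. A gene is said to rise or fall only where its adjusted p (Benjamini-Hochberg over all probe sets) was under 0.05. All 41 genes had a mean signal above the median probe set of the array, from 151 to 52214.

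Differences among the 4 stages were found for 28 of the 41 genes (68.3%) by the F test over stages, against 60.2% of all 6765 genes, so this share is near the background. Of these 28 genes, the highest stage mean was at 188 dpn for 14, at 1 dpn for 6, at 28 dpn for 4 and at 94 dpc for 4. The stage of the highest mean was not counted over all genes or under other scalings, so no late peak particular to these genes is read from it. Between 1 dpn and 94 dpc, 5 genes rose (12.2%, background 13.7%) and 7 fell (17.1%, background 19.5%). Between 28 and 1 dpn, 8 rose (19.5%, background 13.5%) and 6 fell (14.6%, background 10.7%). Between 188 and 28 dpn, 5 rose (12.2%, background 5.79%) and 3 fell (7.32%, background 12.5%). Over the whole span, 188 dpn against 94 dpc, 13 rose (31.7%, background 19.5%) and 6 fell (14.6%, background 27.6%). By the chosen probe sets, 12 genes passed in no comparison: EIF2S1, EIF2B1, EIF2B3, EIF2B4, EIF3A, EIF3K, EIF3L, EIF4E, EEF1A1, EEF1B2, EEF1D and EEF1E1. Other probe sets of EIF2B1 and EEF1A1 did pass, as given below. The median change of the 41 genes over the whole span was 0.20, against -0.08 over all genes. After quantile normalization it was 0.040 against 0.076, and after centring every array on its median 0.490 against 0.215. Which of the medians is higher therefore depends on the scaling. Neighbouring comparisons share the samples of a stage, and the last one shares samples with the first and the third.

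These counts depend on how arrays are scaled. Centring every array on its median moved the median change of all genes from -0.058 to 0.215 between 1 dpn and 94 dpc and from -0.078 to 0.215 between 188 dpn and 94 dpc. After that centring 14 genes rose and 4 fell between 1 dpn and 94 dpc, where 22.8% and 11.4% of all genes did, and 25 rose and 4 fell between 188 dpn and 94 dpc, where 28.9% and 19.6% of all genes did. The split was 6 and 7 between 28 and 1 dpn (all genes 11.0% and 12.7%) and 7 and 2 between 188 and 28 dpn (all genes 7.73% and 9.87%). Quantile normalization gave 4 rising and 9 falling genes between 1 dpn and 94 dpc (all genes 16.8% and 15.2%) and 12 and 9 between 188 dpn and 94 dpc (all genes 23.1% and 22.9%). In what follows the deposited scale is used.

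**Figure D1:**
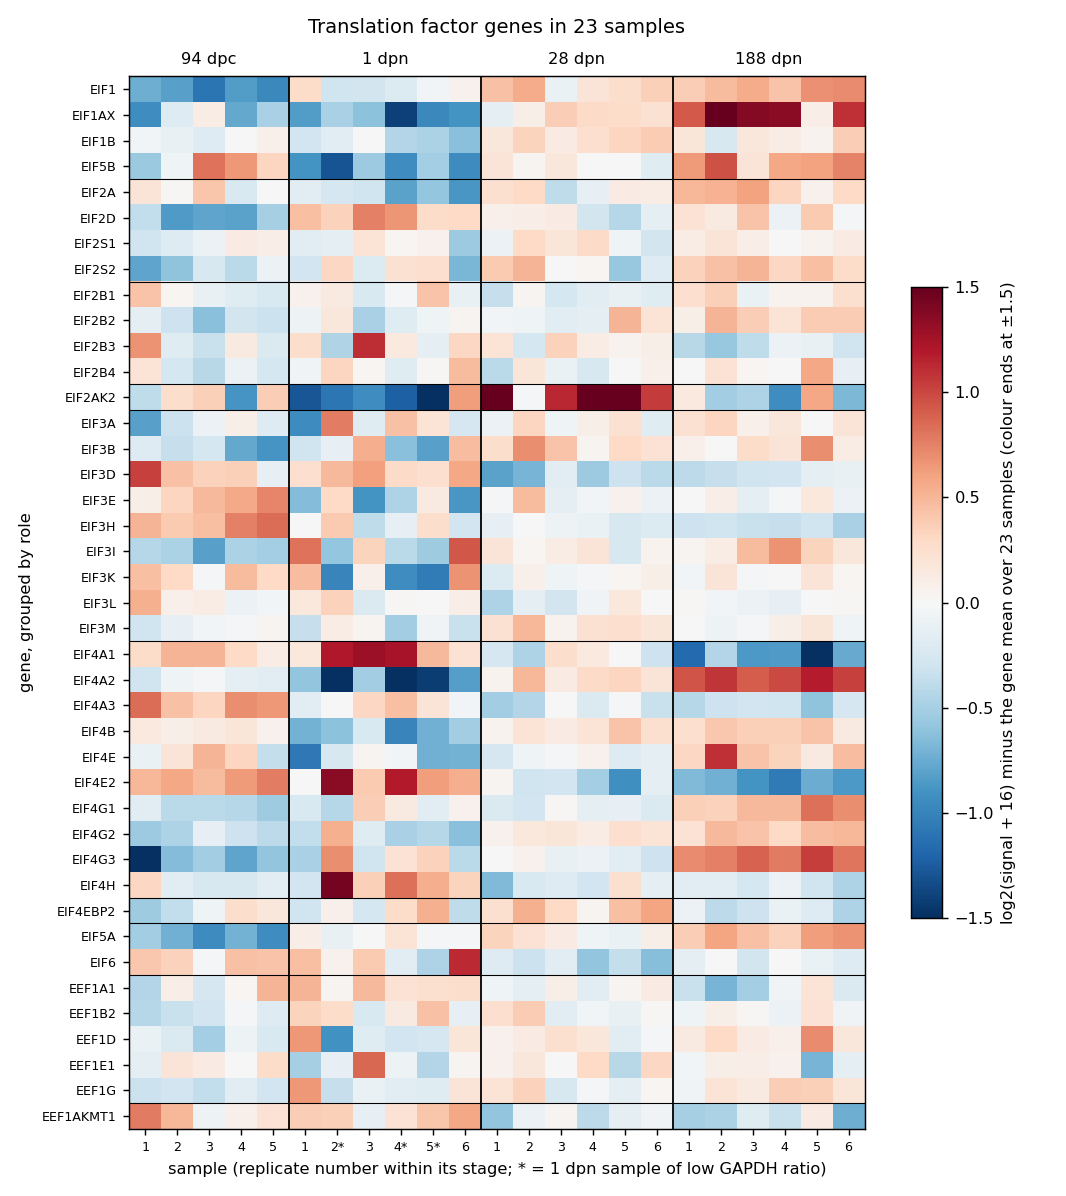
Signal of the 41 genes in each of the 23 samples, as log2(signal + 16) minus the mean of the gene, with columns ordered by stage and rows grouped by role in translation. The strongest rows, such as EIF4A2, EIF4G3 and EIF1, differ between whole stages, and the 3 starred samples of 1 dpn stand apart in part of the rows.

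**Figure D2:**
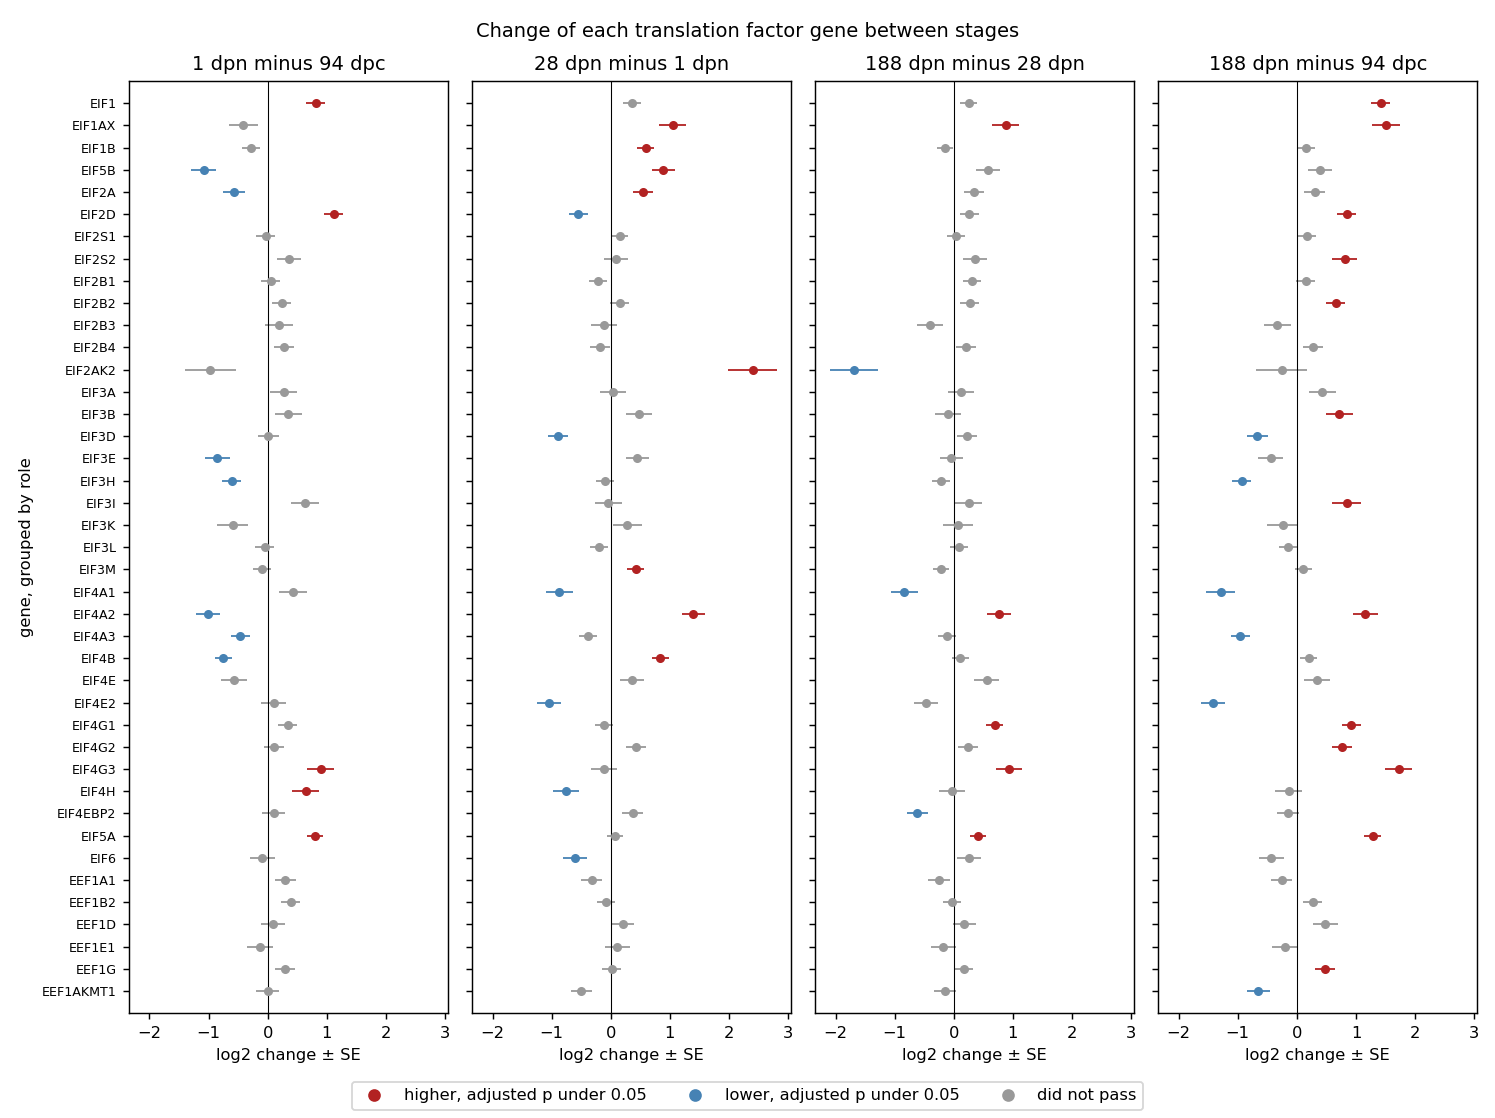
Change of each gene in each comparison as the log2 difference of stage means with its standard error, later stage minus earlier stage. Red points passed upward, blue points passed downward and grey points did not pass; 13 genes are red and 6 are blue in the panel of 188 dpn minus 94 dpc.

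The helicase eIF4A has a pair of cytoplasmic forms, and after 1 dpn their genes moved in opposite directions. EIF4A2, which had the smallest F-test adjusted p of the 41 genes (8.0e-08), had signals of 15571, 17238, 17405, 18388 and 18802 at 94 dpc. At 1 dpn its lowest, median and highest signals were 5252, 9009 and 13362, at 28 dpn 19950, 22771 and 27183, and at 188 dpn 36188, 38614 and 43593. The 4 stages did not overlap: every sample of 1 dpn was below all others, and every sample of 188 dpn was above all others. EIF4A2 fell at 1 dpn relative to 94 dpc by 1.01 ± 0.21 on the log2 scale (adjusted p = 0.00084), then rose at 28 dpn relative to 1 dpn by 1.40 ± 0.20 (adjusted p = 3.6e-05) and at 188 dpn relative to 28 dpn by 0.77 ± 0.20 (adjusted p = 0.011). At 188 dpn it was 2.23-fold the level of 94 dpc (adjusted p = 9.9e-05). The 3 samples of low GAPDH ratio were the 3 lowest of 1 dpn, and without them the fall was -0.51 (adjusted p = 0.017) and the following rise 0.89 (adjusted p = 0.00043).

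EIF4A1, the form that predominates in most dividing cells, had signals of 3165, 3528, 3586, 4154 and 4165 at 94 dpc. At 1 dpn the lowest, median and highest were 3262, 5416 and 7153, followed by 2111, 2679 and 3497 at 28 dpn and 950, 1604 and 2152 at 188 dpn. The samples of 188 dpn lay below all those of 94 dpc and 1 dpn. It fell by 0.87 ± 0.23 at 28 dpn relative to 1 dpn (adjusted p = 0.0097) and by 0.84 ± 0.23 at 188 dpn relative to 28 dpn (adjusted p = 0.014). The first of these falls did not pass once the 3 samples of low GAPDH ratio were left out (-0.66, adjusted p = 0.11). Over the whole span EIF4A1 was 2.44-fold lower at 188 dpn than at 94 dpc (log2 change -1.29 ± 0.24, adjusted p = 0.00013). Each of these genes was read by its only probe set.

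The change of EIF4A2 exceeded that of EIF4A1 by 2.45 on the log2 scale between 188 dpn and 94 dpc, by 1.61 between 188 and 28 dpn and by 2.27 between 28 and 1 dpn, while between 1 dpn and 94 dpc it was lower by 1.44 (difference -1.44). The within-array difference between them did not overlap between stages in any of the 4 comparisons, and the exact two-sided permutation p was 0.0022 or 0.0043, the smallest that the sample numbers allow. Adjusted over the 16 tests on 4 related pairs, it was 0.0069 each time. With the 3 samples of low GAPDH ratio left out the differences at 1 dpn were smaller, -0.72 against 94 dpc (exact permutation, adjusted p = 0.044) and 1.55 for 28 dpn against 1 dpn (adjusted p = 0.038).

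EIF4A3, a helicase of the same family that sits in the exon junction complex, fell by 0.96 ± 0.16 at 188 dpn relative to 94 dpc (adjusted p = 3.8e-05). Its lowest, median and highest signals at 188 dpn were 1746, 2153 and 2236, against 3343, 3614, 4205, 4343 and 4783 at 94 dpc. The stages did not overlap. It also fell at 1 dpn relative to 94 dpc (-0.46 ± 0.16, adjusted p = 0.034; -0.56 and adjusted p = 0.027 without the 3 samples).

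**Figure D3:**
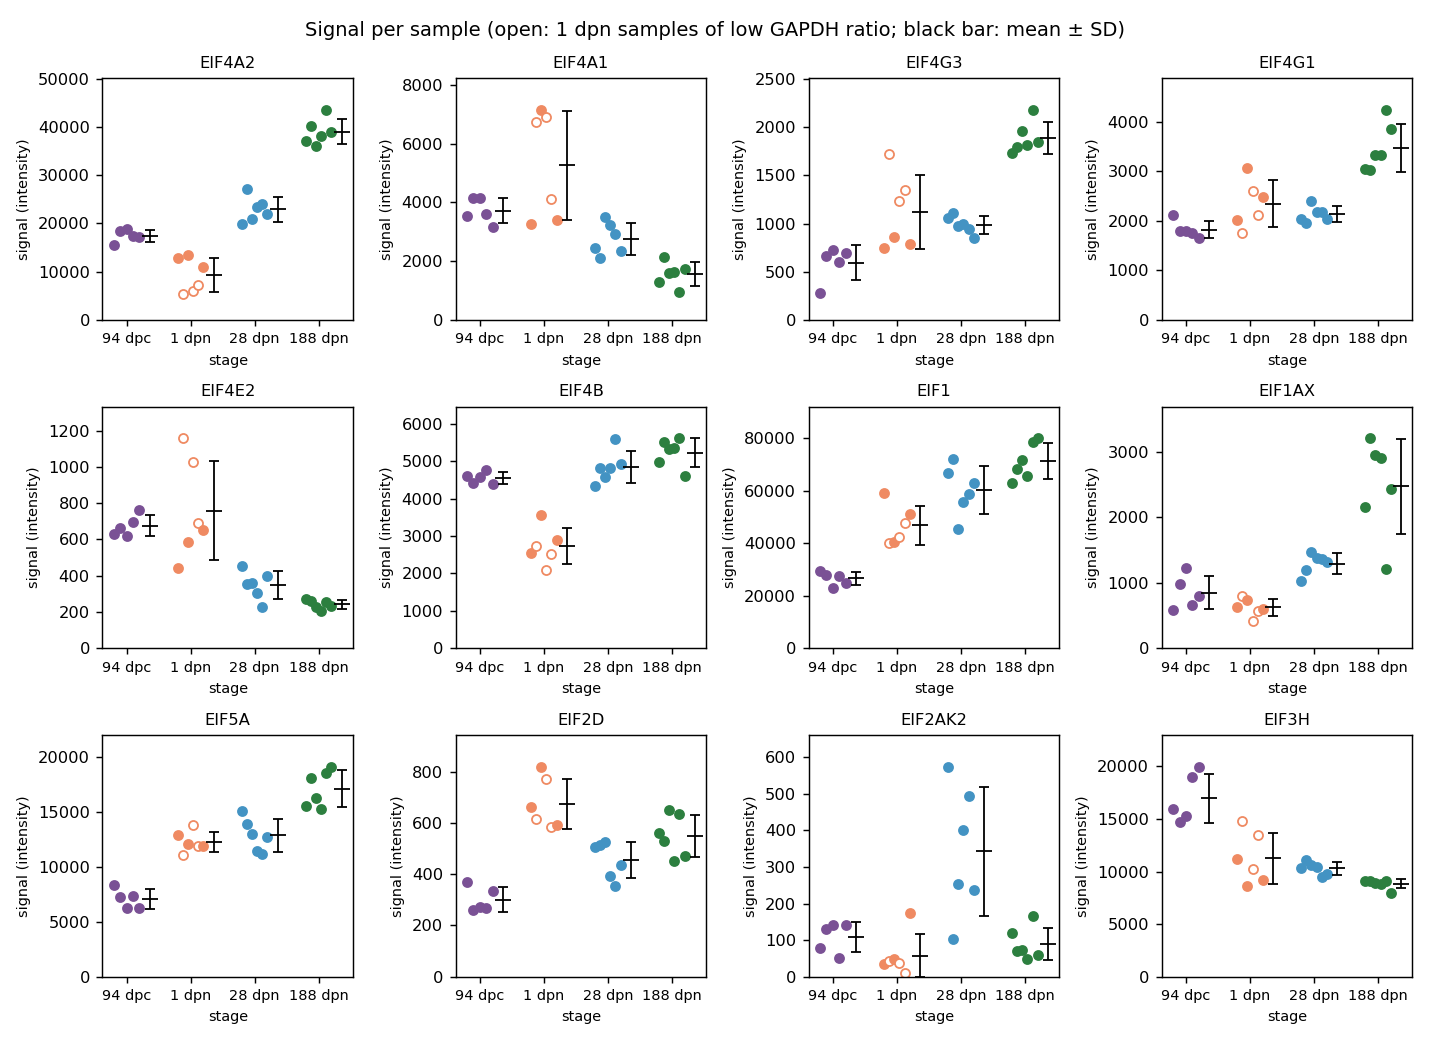
Signal per sample of 12 of the genes by stage, as points on linear axes that start at 0, with the mean and SD in black beside them. EIF4A2 is lowest at 1 dpn and highest at 188 dpn, EIF4A1 and EIF4E2 are lowest at 188 dpn, and open points mark the 3 samples of 1 dpn with a low GAPDH ratio.

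All 3 measured genes of the eIF4G family rose over the whole span, in which 19.5% of all genes rose. EIF4G3, which encodes another form of the scaffold, had signals of 276, 601, 664, 695 and 728 at 94 dpc. Lowest, median and highest signals were 748, 1043 and 1724 at 1 dpn, 845, 984 and 1107 at 28 dpn and 1732, 1834 and 2182 at 188 dpn. All samples of 188 dpn were above every other sample, and all samples of 94 dpc were below every other. EIF4G3 rose 3.28-fold at 188 dpn relative to 94 dpc (log2 change 1.72 ± 0.23, adjusted p = 2.6e-06) and 1.90-fold at 188 dpn relative to 28 dpn (adjusted p = 0.0060). Its rise at 1 dpn relative to 94 dpc (0.90 ± 0.23, adjusted p = 0.0055) did not pass without the 3 samples of low GAPDH ratio (0.49, adjusted p = 0.14), which were the 3 highest of 1 dpn.

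EIF4G1, the main scaffold, held signals of 1645, 1761, 1799, 1802 and 2115 at 94 dpc. For the later stages, the lowest, median and highest were 1762, 2301 and 3072 at 1 dpn, 1952, 2110 and 2404 at 28 dpn and 3022, 3333 and 4246 at 188 dpn. The 188 dpn samples lay above all of 28 dpn and 94 dpc. EIF4G1 rose by 0.69 ± 0.15 at 188 dpn relative to 28 dpn (adjusted p = 0.0028) and by 0.92 ± 0.16 relative to 94 dpc (adjusted p = 5.6e-05). The change of EIF4G3 exceeded that of EIF4G1 over the whole span by 0.80 (exact permutation p = 0.0043, adjusted p = 0.0069), and by 0.50 without 94 dpc replicate 1. Between 188 and 28 dpn the excess was 0.24 (exact permutation, adjusted p = 0.046, groups overlapping), and leaving out 28 dpn replicate 3, 4, 5 or 6 or 188 dpn replicate 1, 2, 3 or 4 ended that call, with adjusted p up to 0.085. The rise of EIF4G1 at 188 dpn relative to 28 dpn was 0.46 (adjusted p = 0.051) in the mean of its probe sets. EIF4G2, a relative of the scaffold that lacks the eIF4E site, had 16096, 18835 and 19502 (lowest, median and highest) at 188 dpn, against 9494 to 12680 at 94 dpc, without overlap, and rose by 0.76 ± 0.17 (adjusted p = 0.0011).

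At the cap itself EIF4E2, a cap-binding relative linked to silencing of mRNAs, fell. Its signals at 94 dpc were 618, 629, 665, 698 and 763. The lowest, median and highest were 443, 671 and 1157 at 1 dpn, 226, 357 and 453 at 28 dpn and 204, 246 and 272 at 188 dpn. All samples of 188 dpn lay below those of 94 dpc and 1 dpn. EIF4E2 fell by 1.04 ± 0.20 at 28 dpn relative to 1 dpn (adjusted p = 0.00089; -0.67 and adjusted p = 0.025 without the 3 samples) and by 1.42 ± 0.21 at 188 dpn relative to 94 dpc (adjusted p = 9.8e-06). Its other probe sets did not follow: they changed by 0.40 (adjusted p = 0.15) and 0.15 (adjusted p = 0.71) over the whole span, and the mean of its probe sets by -0.29 (adjusted p = 0.15). The fall therefore holds for 1 probe set.

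EIF4E, the cap-binding protein of eIF4F, passed the F test over the stages (adjusted p = 0.0055) but no single comparison on the deposited scale. Its signals were 153, 187, 231, 255 and 293 at 94 dpc, and its lowest, median and highest were 87.3, 142 and 207 at 1 dpn, 166, 187 and 211 at 28 dpn and 221, 266 and 447 at 188 dpn. The 188 dpn samples were above all of 28 dpn, with a change of 0.56 ± 0.21 (adjusted p = 0.075) that passed under 5 alternatives: quantile normalization (0.71, adjusted p = 0.027), median centring (0.65, adjusted p = 0.044), the filter on dim probe sets, only the stages compared and array weights. With samples left out in turn it never passed. Its adjusted p then ran from 0.052 to 0.19, the largest without 188 dpn replicate 2, the sample at 447. Between 188 dpn and 94 dpc the change was 0.34 (adjusted p = 0.23), and it passed with quantile normalization (0.72, adjusted p = 0.013) and median centring (0.64, adjusted p = 0.028). The change at 1 dpn relative to 94 dpc was -0.57 ± 0.22 (adjusted p = 0.054; -0.69 and adjusted p = 0.050 without the 3 samples), and it passed with the filter on dim probe sets (adjusted p = 0.024). That change also passed without 94 dpc replicate 5, 1 dpn replicate 2, 3 or 4 or 188 dpn replicate 2, and adjusted p ran from 0.025 to 0.15 over all samples left out in turn. The change of EIF4E2 was below that of EIF4E by 1.76 over the whole span, by 1.03 between 188 and 28 dpn and by 1.40 between 28 and 1 dpn, each with an exact permutation adjusted p of 0.0069. In the mean of all probe sets these differences were -0.64, -0.52 and -0.65 (exact permutation, adjusted p = 0.037, 0.026 and 0.025), and with the 3 samples of low GAPDH ratio left out the last was -1.15 (adjusted p = 0.038).

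EIF4B, which helps the helicase unwind mRNA leaders, dipped at 1 dpn. Its signals were 4386, 4433, 4588, 4617 and 4759 at 94 dpc. The lowest, median and highest were 2099, 2637 and 3557 at 1 dpn, 4343, 4815 and 5609 at 28 dpn and 4602, 5349 and 5615 at 188 dpn. The 1 dpn samples lay below all samples of the other stages. It fell by 0.75 ± 0.14 at 1 dpn relative to 94 dpc (adjusted p = 0.00037) and rose by 0.84 ± 0.14 at 28 dpn relative to 1 dpn (adjusted p = 0.00016). Both calls held without the 3 samples of low GAPDH ratio (-0.61, adjusted p = 0.0048 and 0.70, adjusted p = 0.0030), and the second probe set of the gene passed in both as well (-0.68, adjusted p = 0.0044 and 0.55, adjusted p = 0.023).

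EIF4H, a relative of EIF4B with the same helper role, went the other way and less steadily. At 1 dpn its lowest, median and highest signals were 2954, 4965 and 9815, against 3062, 3067, 3207, 3213 and 4482 at 94 dpc, with overlap. Its rise at 1 dpn (0.64 ± 0.23, adjusted p = 0.040) did not pass without the 3 samples of low GAPDH ratio (0.24, adjusted p = 0.45). Nor did it pass without 1 dpn replicate 2, 4 or 5 or without 94 dpc replicate 2, 3, 4 or 5, one at a time, where adjusted p reached 0.096. Its fall at 28 dpn relative to 1 dpn (-0.75 ± 0.22, adjusted p = 0.018), to 2288, 3120 and 4291, was -0.35 (adjusted p = 0.29) without those 3 samples. The other probe set of EIF4H changed by -0.15 between 1 dpn and 94 dpc.

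EIF4EBP2, an inhibitor that binds eIF4E unless phosphorylated, had lowest, median and highest signals of 3420, 3958 and 4448 at 188 dpn, against 4855, 6132 and 7115 at 28 dpn. The stages did not overlap, and the gene fell by 0.62 ± 0.18 (adjusted p = 0.025). Leaving out replicate 2 or 6 of either stage ended the call, with adjusted p up to 0.059, as did median centring (-0.52, adjusted p = 0.072) and the mean of its probe sets (-0.16, adjusted p = 0.50).

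**Figure D4:**
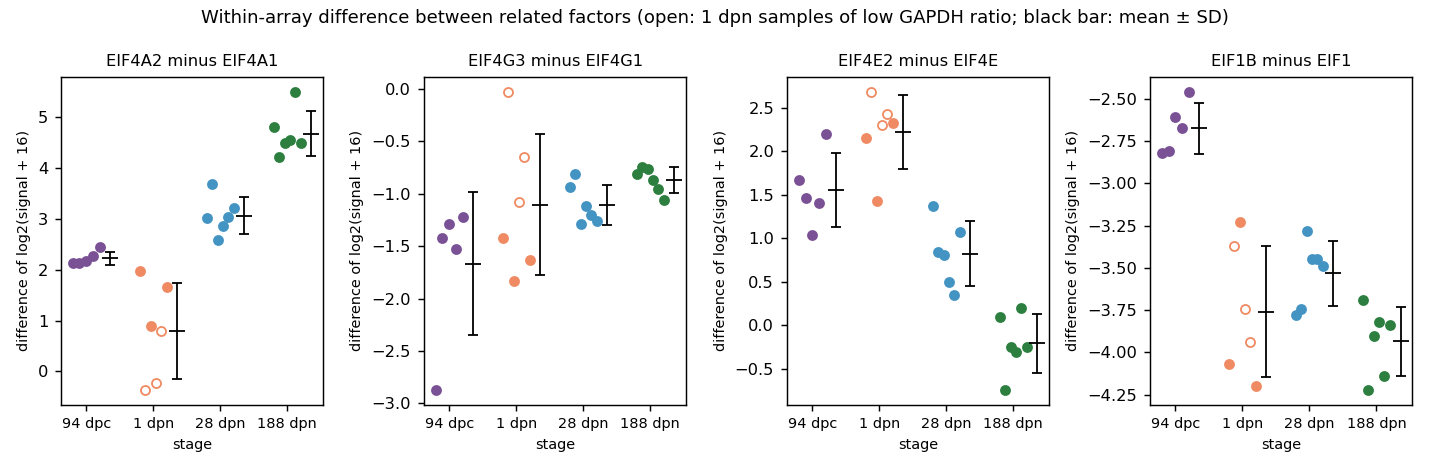
Difference of log2(signal + 16) within each array for 4 pairs of related factors, by stage, with mean and SD in black. The EIF4A2 minus EIF4A1 panel separates every comparison, from its low at 1 dpn to its high at 188 dpn, and the EIF4E2 minus EIF4E panel declines after 1 dpn; heights within a panel compare stages only, since probe sets differ in brightness.

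Of the 4 measured factors that select the start codon and join the subunits, 3 rose at 28 dpn relative to 1 dpn and none fell there, with or without the 3 samples of low GAPDH ratio (all genes 13.5% and 10.7%). EIF1, which guards the fidelity of start codon choice, had signals of 22924, 24971, 27356, 27872 and 29430 at 94 dpc. The lowest, median and highest were 39876, 44985 and 59005 at 1 dpn, 45455, 60704 and 72053 at 28 dpn and 62972, 69943 and 79864 at 188 dpn. All postnatal samples were above all fetal ones. EIF1 rose 1.75-fold at 1 dpn relative to 94 dpc (log2 change 0.81 ± 0.16, adjusted p = 0.00043; 0.91 and adjusted p = 0.00082 without the 3 samples) and 2.68-fold over the whole span (adjusted p = 1.2e-07). Its second probe set passed in the same comparisons, with changes of 1.09 (adjusted p = 2.2e-05) and 1.97 (adjusted p = 1.1e-09).

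EIF1AX, a gene of eIF1A, which works with eIF1 in scanning, had signals of 581, 658, 803, 983 and 1221 at 94 dpc. After birth, the lowest, median and highest were 417, 611 and 800 at 1 dpn, 1019, 1344 and 1463 at 28 dpn and 1213, 2668 and 3206 at 188 dpn. The 28 dpn samples were all above those of 1 dpn, whereas 188 dpn and 28 dpn overlapped. EIF1AX rose 2.07-fold at 28 dpn relative to 1 dpn (adjusted p = 0.0022; log2 change 0.96 and adjusted p = 0.021 without the 3 samples) and 1.83-fold at 188 dpn relative to 28 dpn (adjusted p = 0.011). Over the whole span it rose by 1.51 ± 0.24 (adjusted p = 1.8e-05), and a second probe set passed in these 3 comparisons, with changes of 0.97, 0.84 and 1.00. That second probe set also fell at 1 dpn relative to 94 dpc (-0.81 ± 0.24, adjusted p = 0.015). The chosen one did not pass there (-0.41, adjusted p = 0.22; -0.33 and adjusted p = 0.44 without the 3 samples).

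EIF1B, a close relative of EIF1, rose by 0.59 ± 0.14 at 28 dpn relative to 1 dpn (adjusted p = 0.0053; 0.57 and adjusted p = 0.026 without the 3 samples). Its lowest, median and highest signals there were 4655, 5223 and 5565, against 2770, 3323 and 4294 at 1 dpn, without overlap. Over the whole span its change was 1.26 below that of EIF1 (difference -1.26, exact permutation, adjusted p = 0.0069). EIF5B, the GTPase of subunit joining, had signals of 208, 301, 397, 503 and 563 at 94 dpc, 119, 160 and 217 (lowest, median and highest) at 1 dpn, 276, 321 and 362 at 28 dpn and 362, 492 and 625 at 188 dpn. It fell by 1.08 ± 0.21 at 1 dpn relative to 94 dpc (adjusted p = 0.00058) and rose by 0.89 ± 0.20 at 28 dpn relative to 1 dpn (adjusted p = 0.0038), and both calls held without the 3 samples (-1.02, adjusted p = 0.0050 and 0.83, adjusted p = 0.027). Its other probe sets changed by 0.36 and -0.00 between 1 dpn and 94 dpc, and the mean of its probe sets by -0.24 (adjusted p = 0.45) there and by 0.38 (adjusted p = 0.22) between 28 and 1 dpn.

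EIF2D, which can place initiator tRNA outside the usual eIF2 route, had signals of 259, 269, 272, 336 and 370 at 94 dpc. Lowest, median and highest signals were 584, 640 and 820 at 1 dpn, 353, 473 and 527 at 28 dpn and 453, 545 and 653 at 188 dpn. The 1 dpn samples were above all of 94 dpc and 28 dpn, and those of 188 dpn above all of 94 dpc. EIF2D rose 2.18-fold at 1 dpn relative to 94 dpc (log2 change 1.12 ± 0.16, adjusted p = 2.3e-05; 1.16 and adjusted p = 0.00018 without the 3 samples). It then fell by 0.55 ± 0.16 at 28 dpn relative to 1 dpn (adjusted p = 0.017; -0.59 and adjusted p = 0.040 without them).

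Neither measured subunit of eIF2 passed between neighbouring stages. EIF2S2, which encodes the beta subunit, rose by 0.81 ± 0.21 over the whole span (adjusted p = 0.0033), with 4326, 4696 and 5070 (lowest, median and highest) at 188 dpn, against 2054 to 3348 at 94 dpc. EIF2S1, the alpha subunit that the stress kinases phosphorylate, did not pass in any comparison (0.17 over the whole span, adjusted p = 0.45). Of the 4 measured subunits of the exchange factor eIF2B, which recharges eIF2 with GTP, only EIF2B2 passed in a comparison by its chosen probe set. It rose by 0.66 ± 0.16 over the whole span (adjusted p = 0.0025). A dimmer probe set of EIF2B1 fell by 1.52 ± 0.37 at 1 dpn relative to 94 dpc (adjusted p = 0.0034), where the chosen one changed by 0.05. EIF2A, a factor of its own despite the name, fell at 1 dpn relative to 94 dpc (-0.57 ± 0.18, adjusted p = 0.021) and rose at 28 dpn (0.54 ± 0.17, adjusted p = 0.033), but neither passed without the 3 samples of low GAPDH ratio (adjusted p = 0.074 and 0.13).

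EIF2AK2, the gene of PKR, a kinase of eIF2 alpha that double-stranded RNA activates and interferon induces, peaked at 28 dpn. Its signals at 94 dpc were 50.3, 77.7, 131, 141 and 142. After birth, the lowest, median and highest were 10.2, 38.8 and 173 at 1 dpn, 104, 326 and 574 at 28 dpn and 48.0, 70.8 and 166 at 188 dpn. The stages overlapped in these comparisons, since 1 sample of 1 dpn was at 173 and the lowest of 28 dpn was at 104. It rose 5.27-fold at 28 dpn relative to 1 dpn (log2 change 2.40 ± 0.41, adjusted p = 0.00024; 1.90 and adjusted p = 0.012 without the 3 samples) and was 3.23-fold lower at 188 dpn than at 28 dpn (log2 change -1.69 ± 0.41, adjusted p = 0.0064). Over the 4 stages, 4 measured of 8 macrophage markers summed to 1021 to 1367, 740 to 1462, 1039 to 2498 and 448 to 980, and their part in the result was not tested. These signals lie near the middle of the array, and the deposited values hold no detection calls.

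The 9 measured genes of eIF3, the scaffold that holds the small subunit and mRNA together, moved both ways. With all samples none rose and 2 fell between 1 dpn and 94 dpc (all genes 13.7% and 19.5%). Without the 3 samples 2 rose there, EIF3I (1.23, adjusted p = 8.2e-05, against 0.63 and adjusted p = 0.060 with them) and EIF3B (0.73, adjusted p = 0.025, against 0.35 and adjusted p = 0.30), and 2 fell. EIF3K, which did not pass either way, changed by 0.10 without them and by -0.59 with them. Between 28 and 1 dpn 1 rose and 1 fell with all samples (all genes 13.5% and 10.7%), and 1 rose and 2 fell without the 3. Between 188 dpn and 94 dpc 2 rose and 2 fell (all genes 19.5% and 27.6%). EIF3H, a subunit outside the conserved core of yeast eIF3, had 14739, 15294, 15926, 18990 and 19966 at 94 dpc. Its lowest, median and highest signals were 8622, 10722 and 14766 at 1 dpn, 9487, 10387 and 11118 at 28 dpn and 7983, 8986 and 9122 at 188 dpn. All samples of 188 dpn were below all of 28 dpn and 94 dpc. EIF3H fell by 0.61 ± 0.16 at 1 dpn relative to 94 dpc (adjusted p = 0.0049; -0.81 and adjusted p = 0.00057 without the 3 samples) and by 0.93 ± 0.16 over the whole span (adjusted p = 3.8e-05). The first of these falls did not pass after median centring (-0.34, adjusted p = 0.12) or in a fit of only the stages compared (adjusted p = 0.062).

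EIF3E, another subunit that budding yeast lacks, had 3984, 5062 and 9174 (lowest, median and highest) at 1 dpn, against 7928, 9299, 10378, 11021 and 12356 at 94 dpc, with overlap, and fell by 0.85 ± 0.21 (adjusted p = 0.0037). With the 3 samples of low GAPDH ratio left out the change was -1.24 (adjusted p = 4.7e-05), and EIF3E then also rose at 28 dpn relative to 1 dpn (0.84, adjusted p = 0.0026, against 0.45 and adjusted p = 0.13 with them). EIF3D, a subunit that can itself bind caps of certain mRNAs, had 1330, 1679 and 2069 at 28 dpn, against 2774, 3065 and 3594 at 1 dpn. These groups did not overlap, and EIF3D fell by 0.90 ± 0.17 (adjusted p = 0.00068; -0.97 and adjusted p = 0.0036 without the 3 samples). At 188 dpn it was at 1769, 1901 and 2164, against 2138, 2959, 2983, 3168 and 4756 at 94 dpc, and its log2 change was -0.67 ± 0.18 (adjusted p = 0.0046). The fall at 28 dpn was -0.61 (adjusted p = 0.087) in the mean of its probe sets, and the one over the whole span -0.37 (adjusted p = 0.13) after median centring. EIF3I and EIF3B, core subunits, rose over the whole span by 0.84 ± 0.24 (adjusted p = 0.0083) and 0.72 ± 0.23 (adjusted p = 0.017). EIF3M, another non-core subunit, rose by 0.42 ± 0.14 at 28 dpn relative to 1 dpn (adjusted p = 0.040), which did not pass with the 3 samples left out (0.45, adjusted p = 0.052).

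Of the late factors, EIF5A rose at 1 dpn relative to 94 dpc and EIF6 fell at 28 dpn relative to 1 dpn. EIF5A, the hypusine-bearing protein that helps the ribosome through difficult peptide bonds, had signals of 6221, 6272, 7264, 7355 and 8366 at 94 dpc. The lowest, median and highest were 11105, 11982 and 13841 at 1 dpn, 11155, 12881 and 15147 at 28 dpn and 15254, 17225 and 19146 at 188 dpn. All postnatal samples were above all fetal ones, and those of 188 dpn above all others. EIF5A rose by 0.80 ± 0.14 at 1 dpn relative to 94 dpc (adjusted p = 0.00020, and 0.80 with adjusted p = 0.00098 without the 3 samples) and 2.42-fold over the whole span (adjusted p = 1.5e-07). The rise at 188 dpn relative to 28 dpn (0.41 ± 0.14, adjusted p = 0.044) did not pass without 94 dpc replicate 2, 4 or 5, 28 dpn replicate 3, 4, 5 or 6 or 188 dpn replicate 2, 3, 5 or 6, left out one at a time, with adjusted p up to 0.100. A dimmer probe set of the gene changed by -1.02 (adjusted p = 0.11) between 1 dpn and 94 dpc, so that the mean of its probe sets was -0.11 (adjusted p = 0.80).

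EIF6, which keeps the large subunit free until it is ready to join, had 1055, 1307 and 1467 (lowest, median and highest) at 28 dpn, against 1198, 1956 and 3606 at 1 dpn, with overlap. It fell by 0.61 ± 0.20 (adjusted p = 0.038). With the 3 samples of low GAPDH ratio left out the change was -1.03 (adjusted p = 0.00087). Leaving out 1 dpn replicate 1, 3 or 6 or 28 dpn replicate 2, 4, 5 or 6, one at a time, ended the call, with adjusted p up to 0.092.

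The 5 measured genes grouped as elongation genes by their symbols were EEF1A1, EEF1B2, EEF1D, EEF1E1 and EEF1G. On the deposited scale, with all samples and in the chosen probe sets, none of these 5 passed between neighbouring stages. Of all genes, 5.79% to 13.7% rose and 10.7% to 19.5% fell in those steps. Over the whole span 1 of the 5 rose (all genes 19.5%). Without the 3 samples of low GAPDH ratio EEF1G rose between 1 dpn and 94 dpc (0.53, adjusted p = 0.040, against 0.29 and adjusted p = 0.24 with them). EEF1G, a subunit of the exchange complex of eEF1A, rose over the whole span, with 40384, 47951 and 54279 (lowest, median and highest) at 188 dpn, against 32541, 33633, 34296, 34302 and 37681 at 94 dpc, without overlap (0.48 ± 0.17, adjusted p = 0.031). EEF1B2, a subunit of the same complex, changed by 0.27 (adjusted p = 0.19). EEF1AKMT1, a methyltransferase that modifies eEF1A, fell by 0.65 ± 0.19 over the whole span (adjusted p = 0.0094), with overlap between the stages.

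EEF1A1, the gene of the elongation factor that carries aminoacyl tRNA, was read from a probe set with signals of 961, 1100, 1331, 1406 and 1877 at 94 dpc. Its lowest, median and highest were 1349, 1565 and 1870 at 1 dpn, 1170, 1297 and 1428 at 28 dpn and 802, 1078 and 1513 at 188 dpn. Fetal and 188 dpn samples overlapped, and the change of -0.26 ± 0.18 between them did not pass (adjusted p = 0.30). The result depends on the probe sets and the scale: in the mean of all its probe sets EEF1A1 fell by 1.07 over the whole span (adjusted p = 7.5e-06) and by 0.55 between 188 and 28 dpn (adjusted p = 0.015). A dimmer probe set of the gene fell at 28 dpn relative to 1 dpn (-0.72, adjusted p = 0.019) and at 188 dpn relative to 28 dpn (-0.91, adjusted p = 0.0042). It also fell over the whole span (-2.17, adjusted p = 3.7e-08), as did another dimmer one (-0.79, adjusted p = 0.031). With median centring the chosen probe set rose by 0.58 between 1 dpn and 94 dpc (adjusted p = 0.032) and changed by 0.03 over the whole span (adjusted p = 0.90). This probe set is not the brightest for eEF1A. The array also carries 3 control probe sets along the eEF1A transcript, which were left out of the tests with the other controls, and they did differ.

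The 3′ control averaged 34966 ± 3527 at 188 dpn and 47412 ± 4431 at 94 dpc (SD, n = 6 and 5), and fell by 0.44 ± 0.15 (adjusted p = 0.028). The middle control fell by 0.62 ± 0.22 (adjusted p = 0.027) and the 5′ control by 1.35 ± 0.45 (adjusted p = 0.021) in the same comparison, in a fit with the controls included. Between 188 and 28 dpn the 3′ control fell by 0.61 ± 0.15 (adjusted p = 0.0064) in that fit. The middle control (-0.56, adjusted p = 0.076) and the 5′ control (-0.75, adjusted p = 0.29) did not pass there with all samples. Without the 3 samples of low GAPDH ratio, which are in neither stage, both passed with unchanged log2 changes (adjusted p = 0.0096 and 0.0035). At 1 dpn the 5′ control had 7118 to 7579 in the 3 samples of low GAPDH ratio and 39879 to 56369 in the other 3, while its 3′ control had 60476 to 70499 and 48391 to 74248. The fall of the 5′ control at 1 dpn relative to 94 dpc (-1.35 ± 0.45, adjusted p = 0.029) was -0.00 (adjusted p = 0.99) without those samples. The 5′ to 3′ ratio of eEF1A also moved with age outside 1 dpn, at 0.908 to 1.08 in 94 dpc, 0.532 to 0.706 in 28 dpn and 0.458 to 0.638 in 188 dpn, and its part in the changes of other genes was not tested.

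**Figure D5:**
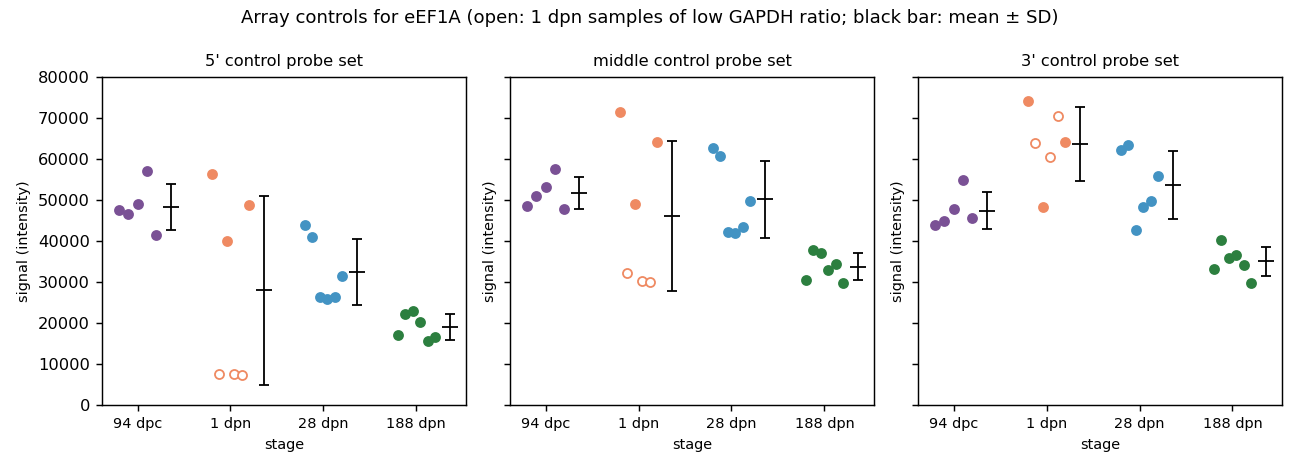
Signal of the 5′, middle and 3′ control probe sets of eEF1A per sample and stage, on a shared linear axis, with mean and SD in black. The 3 open points of 1 dpn are low in the 5′ and middle panels only, and the 188 dpn samples are below those of 94 dpc in each panel.

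The 3 samples of low GAPDH ratio did not overlap the other 3 of 1 dpn for 15 of the 41 genes, 8 lower and 7 higher. The same share was not counted over all genes, so it is not read as particular to these 41. Without the 3 samples 6 genes rose and 6 fell between 1 dpn and 94 dpc (all genes 14.3% and 18.8%), of which 3 and 6 were among the 5 and 7 found with all samples. The rises gained were EEF1G, EIF3B and EIF3I, and the calls lost were the rises of EIF4G3 and EIF4H and the fall of EIF2A. Between 28 and 1 dpn 9 rose and 5 fell without them (all genes 10.5% and 9.06%), 6 and 4 being shared with the 8 and 6 of all samples. There EIF3E, EIF4EBP2 (0.67, adjusted p = 0.021) and EIF4G2 (0.55, adjusted p = 0.016) were gained as rises and EIF3I (-0.64, adjusted p = 0.024) as a fall, while EIF2A, EIF3M, EIF4A1 and EIF4H were lost. With all samples a dimmer probe set of EIF4EBP2 fell in this comparison (-0.83 ± 0.21, adjusted p = 0.0081), and its other dimmer ones changed by 0.05 to 0.51 without passing. Over the whole span all 13 rising and all 6 falling genes were called again without them, among 14 and 8 (all genes 21.7% and 29.5%). Another control, Dap, had a 5′ to 3′ ratio of 0.335 to 0.392 at 188 dpn and 0.0696 to 0.0981 at 28 dpn, and in a fit with this ratio as a covariate 1 gene rose and 1 fell between these stages (all genes 2.78% and 6.96%). EIF4A2 then changed by 0.24 (adjusted p = 0.63), EIF1AX by 0.68 (adjusted p = 0.24), EIF4A1 by -0.89 (adjusted p = 0.11), EIF4G1 by 0.45 (adjusted p = 0.20), EIF5A by 0.35 (adjusted p = 0.32) and EIF4EBP2 by -0.12 (adjusted p = 0.82). The ratio separates both stages fully, so that it and age cannot be told apart there.

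Of the 22 other probe sets of these genes, set beside the 32 cases in which the chosen probe set passed, 8 passed in the same direction and none in the opposite one, 14 had the same sign without passing and 10 the opposite sign without passing. In 14 further cases another probe set passed where the chosen one did not. For EIF2B1, EEF1AKMT1, EIF4G1, EIF4EBP2 and EIF3M such a case ran opposite in sign to the chosen probe set.

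Genes around these factors were described from lists chosen with earlier results of these data known. Of 15 measured genes of the response to eIF2 alpha phosphorylation, 3 rose and 3 fell over the whole span, or 20.0% each, against 19.5% and 27.6% of all genes. ATF4, the transcription factor whose mRNA is translated when eIF2 is inhibited, averaged 67954 ± 4250 at 188 dpn and 7128 ± 517 at 94 dpc (SD, n = 6 and 5), a rise of 3.25 ± 0.18 (adjusted p = 5.5e-12). It rose at 28 dpn relative to 1 dpn by 2.08 ± 0.17 (adjusted p = 3.7e-08; 1.86 and adjusted p = 3.2e-06 without the 3 samples), with 35694 ± 6360 at 28 dpn and 8574 ± 2420 at 1 dpn. CEBPB, a transcription factor linked to ATF4 signalling, rose by 2.91 ± 0.29 over the whole span (adjusted p = 2.4e-08). SLC3A2, also on this list, rose by 1.41 ± 0.18 (adjusted p = 1.1e-06). The 3 that fell were PPP1R15A (-2.18 ± 0.58, adjusted p = 0.0040), PSAT1 (-1.55 ± 0.60, adjusted p = 0.044) and MTHFD2 (-1.22 ± 0.34, adjusted p = 0.0062), a mitochondrial folate enzyme and known ATF4 target.

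Of 25 measured genes of mTORC1 and growth signalling, 4 rose and 1 fell between 1 dpn and 94 dpc (16.0% and 4.00%, all genes 13.7% and 19.5%). Without the 3 samples of low GAPDH ratio 4 rose and 3 fell there, RRAGC (-1.01, adjusted p = 0.00070) and PRKAB1 (-0.89, adjusted p = 0.037) being added. Between 28 and 1 dpn 3 rose and 3 fell (12.0% each, all genes 13.5% and 10.7%). In that comparison RPS6KA1 (adjusted p = 0.16), TSC2 (adjusted p = 0.11) and PDPK1 (adjusted p = 0.13) lost their calls without the 3 samples, and RRAGC and LAMTOR2 gained theirs, which left 2 rising and 3 falling. Between 188 and 28 dpn 1 rose and 3 fell (4.00% and 12.0%, all genes 5.79% and 12.5%), and over the whole span 10 rose and 4 fell (40.0% and 16.0%, all genes 19.5% and 27.6%). PRKAA2, the catalytic alpha 2 subunit of AMPK, which restrains mTORC1, averaged 8897 ± 2398 at 188 dpn and 2412 ± 490 at 94 dpc and rose by 1.86 ± 0.30 (adjusted p = 2.7e-05). DDIT4L, an inhibitor of mTORC1 signalling, rose by 1.63 ± 0.31 (adjusted p = 0.00020). The other rises, by 0.45 to 0.85, were those of PRKAG3, LAMTOR2, LAMTOR3, AKT2, STK11, AKT1S1, RHEB and RRAGA. PRKAB1, a beta subunit of AMPK, fell by 1.40 ± 0.27 (adjusted p = 0.00018), and PDPK1, the kinase that activates AKT and S6K, by 1.32 ± 0.21 (adjusted p = 2.5e-05). AKT1 (-0.82) and MKNK1 (-0.48) fell as well. The list was not sorted into genes that promote and genes that restrain mTORC1, so no direction of the pathway is read from it.

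Of 9 measured cofactors, 3 rose and 2 fell between 1 dpn and 94 dpc (33.3% and 22.2%, all genes 13.7% and 19.5%), and 4 rose and 3 fell over the whole span (44.4% and 33.3%, all genes 19.5% and 27.6%). Without the 3 samples of low GAPDH ratio 2 rose and 2 fell between 1 dpn and 94 dpc, since GCN1 (0.35, adjusted p = 0.25) lost its call. DHPS, the enzyme that makes the hypusine precursor on eIF5A, averaged 2765 ± 580 at 1 dpn and 1107 ± 288 at 94 dpc, rose by 1.32 ± 0.17 (adjusted p = 4.7e-06; adjusted p = 1.4e-05 without the 3 samples) and was up by 1.25 ± 0.17 over the whole span (adjusted p = 2.5e-06). PABPC1, the poly(A)-binding protein that eIF4G holds, averaged 3815 ± 403 at 188 dpn and 14408 ± 1461 at 94 dpc and fell by 1.91 ± 0.20 (adjusted p = 4.8e-08). PABPC4, a relative of it, rose by 1.02 ± 0.20 (adjusted p = 0.00027), and PAIP1, which binds PABPC1 and eIF4A, by 1.13 ± 0.19 (adjusted p = 4.3e-05). FMR1, also on this list, fell by 1.48 ± 0.21 over the whole span (adjusted p = 3.9e-06). It had fallen by 1.39 ± 0.21 at 1 dpn relative to 94 dpc (adjusted p = 2.7e-05; -1.49 and adjusted p = 0.00017 without the 3 samples).

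Mitochondria translate their own mRNAs with a separate set of factors. Of 6 measured genes of that set, 4 rose and none fell between 1 dpn and 94 dpc, and 3 fell and none rose between 28 and 1 dpn, with or without the 3 samples of low GAPDH ratio. Of all genes, 13.7% rose in the first comparison and 10.7% fell in the second. TSFM, the mitochondrial exchange factor of elongation, averaged 3434 ± 856 at 1 dpn and 888 ± 79.9 at 94 dpc and rose by 1.90 ± 0.18 (adjusted p = 9.6e-08; 1.59 and adjusted p = 4.1e-06 without the 3 samples). TUFM, the factor it recharges, averaged 8240 ± 2733 and 3181 ± 1326 at the same stages and rose by 1.41 ± 0.25 (adjusted p = 0.00020; 1.81 and adjusted p = 7.9e-05 without them). At 28 dpn relative to 1 dpn TSFM fell by 1.12 ± 0.17 (adjusted p = 8.1e-05; -0.81 and adjusted p = 0.0034 without the 3 samples) and TUFM by 0.70 ± 0.24 (adjusted p = 0.046; -1.10 and adjusted p = 0.0083 without them).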

How the data were processed

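The study hybridised labelled RNA of 23 samples to porcine Affymetrix arrays. The deposited table gives a linear intensity for each of 24123 probe sets per sample. The submitters' processing notes list GCOS 1.1.1 without its role, and the summarisation method is not given in the sources used here. The 2% trimmed mean was 500.1 to 500.2 on every array, and the values were taken as already scaled.

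Groups are the labelled stages. Replicate numbers follow accession order and pair nothing. The 124 control probe sets were left out, and log2(signal + 16) of the other 23999 was fitted with 1 mean per stage using limma 3.58.1 (lmFit, eBayes) in R 4.3.3, with two-sided tests, Benjamini-Hochberg adjustment over all probe sets and a threshold of 0.05. Annotation gave 10069 probe sets 1 symbol, 198 several and 13732 none. Probe sets with several symbols, such as those of EIF4EBP3, were not used. Of the 41 genes, 40 were found in the RefSeq gene table (all but EIF2S2). Tables and exact permutation tests were made with Python 3.11.15, pandas 2.3.3 and SciPy 1.17.1, and figures with matplotlib 3.10.9. The fit was tested on simulated data, with changes planted in probe sets drawn from the whole array. Of 100 planted log2 changes of 1 it recovered 29 to 41 per comparison, and of 100 of 2 it recovered 81 to 84. False calls numbered 3 to 9. A change that did not pass can therefore still be present.

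The genes given with sample values are, per comparison, the 5 largest rises and 5 largest falls among called members, plus EEF1A1 and EIF4E. Members and lists were chosen with earlier results of these data known. Alternatives were the pseudocount, quantile normalization, median centring, a filter on dim probe sets, array weights, a trended robust fit, only the stages compared, the mean of probe sets, control ratios as covariates, leaving out each sample or the 3 samples of low GAPDH ratio and, added after seeing the data, including the controls.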

Additional observations from a re-analysis of the deposited data

Results flagged for a closer look

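For 21 genes with sample values given, the lowest and highest samples of each stage were set against the spread of that stage, 84 groups in all, and 7 groups had a sample that stood far from the others (Dixon's test at the 95% level). Chance marks about 1 in 20 groups. At 1 dpn, EIF2AK2 had a signal of 173 in replicate 6, against 10.2 to 47.9 in the others. At 28 dpn, EIF3E had 10356 in replicate 2, against 6718 to 7774. At 188 dpn, EIF3H had 7983 in replicate 6, against 8789 to 9122, and EIF4E had 447 in replicate 2, against 221 to 282. At 94 dpc, EIF4G3 had 276 and EIF4H had 4482 in the same sample, replicate 1, against 601 to 728 and 3062 to 3213. EIF6 had 1627 in replicate 3 of 94 dpc, against 2105 to 2254.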

How the results depend on the processing

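No paired analysis was possible because replicate numbers follow accession order and the dam of each animal is not labelled. With 1 sample left out at a time, the rising and falling genes numbered 4 to 6 and 6 to 8 between 1 dpn and 94 dpc, 6 to 10 and 5 to 7 between 28 and 1 dpn, 4 to 6 and 2 to 3 between 188 and 28 dpn, and 11 to 14 and 6 to 6 over the whole span. The F test called 26 to 30 genes, and 11 to 13 of the 16 differences between related factors passed. Under the other settings 112 of 122 counts stayed within 1.5 times of the reported count. Between 1 dpn and 94 dpc, rises numbered 14 with median centring and 3 both with only the stages compared and with the mean of all probe sets, and falls numbered 4 with median centring and 4 with only the stages compared. Falls between 28 and 1 dpn numbered 3 with only the stages compared and 3 with the mean of probe sets. The Dap covariate left 1 rise and 1 fall between 188 and 28 dpn, and median centring gave 25 rises over the whole span. Single genes turned direction in 3 of 670 cases: EEF1A1 between 1 dpn and 94 dpc was -0.20 and EIF5A -0.11 with the mean of probe sets, and EEF1A1 over the whole span was 0.03 with median centring. The cause of these differences was not tested, except that fits of only the stages compared hold fewer samples. Dim genes are limited by signal over background, for which no detection calls were used here.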
